A study of Mus musculus with 4 samples.

Results

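Collagen chains were taken from the deposited table as the genes whose symbol is Col, a type number, the letter a and a chain number. The rule found 39 of the 15424 listed genes: 10 fibrillar chains, 6 basement membrane chains, 6 type VI chains, 8 FACIT chains and 9 others. No gene is listed under the symbols Col10a1, Col19a1, Col24a1 or Col25a1. The gene now called Col26a1 is listed under its older symbol Emid2 (0.138 and 0 FPKM), outside the rule. The values came from subcutaneous tumors in nude mice (which lack mature T cells) transplanted with R728T1, a single mouse line that the labels derive from an Rb/P53 model and give as small cell lung cancer. Control tumors are titled shLuciferace and are called shLuc here, and the others carried a knockdown of Taz and are called shTaz. Each group has 2 samples, the ages and numbers of mice and the shRNA sequences are not in the labels, and all samples share the line, the host and the site.

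The table holds 1 FPKM value per group (fragments scaled by the length of the transcript and by the mapped reads). How the 2 samples of a group entered that value is not stated. The spread among tumors cannot be seen, so every difference below describes these columns and carries neither an error nor a test. Sequencing depth is unknown. Pairs of FPKM values are given with the control (shLuc) first and the knockdown (shTaz) second. The number in parentheses after a pair is the difference on a log2 scale, shTaz over shLuc after 1 was added to both FPKM values, which shrinks the differences of genes near 0. A difference of 1 or more in size is called 2-fold. The 11650 genes averaging 1 FPKM or more are called the retained genes, and their median difference was 0.12. Of them, 3.25% were 2-fold lower and 3.96% 2-fold higher in the shTaz column (7.21% in either direction), and 4858 of the 11650 lay below 0. Wwtr1, which encodes the coactivator TAZ, was at 23.4 and 15.1 FPKM, or 64.5% of its control value. The table also holds a gene with the symbol Taz, the mitochondrial protein tafazzin, at 13.7 and 9.50 FPKM, and the labels do not say which sequence the shRNA targets. Of 8 neuroendocrine markers, the 4 found in the table included Ncam1 at 39.8 and 43.8 FPKM and Uchl1 at 10.1 and 1.51 FPKM, with Syp and Insm1 under 1 FPKM in both columns. The cells of the tumor and of the host are both of mouse origin, so a value sums both. In such bulk RNA, fewer cells of a type and less RNA per cell cannot be told apart.

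Collagens are the main structural proteins of the extracellular matrix. Each molecule is a triple helix of chains in which glycine returns after every 2 other amino acids, so that the coding sequence repeats a glycine codon (GGN) followed by 6 further bases. Fibrillar collagens form the banded fibrils of skin, bone and tumor stroma, type IV forms the sheet-like network of basement membranes, type VI forms beaded microfibrils around cells, and FACITs (fibril-associated collagens with interrupted triple helices) decorate fibrils. Several types are heterotrimers, so the balance between partner chains matters as well as their level.

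The repeat is visible in the sequences. The longest unbroken run of GGN units was searched in the longest coding transcript of each member (GENCODE M21, mm10). It was 338 units long in Col1a1, 339 in Col1a2, 344 in Col3a1 and 339 in Col5a2, against 40 in Col4a1, 45 in Col4a6, 87 in both Col6a1 and Col6a2, 32 in Col12a1 and 30 in Col15a1. Over the 39 members, fibrillar runs spanned 217 units (Col27a1) to 344 (Col3a1), and runs of the other classes 28 (Col28a1) to 113 (Col22a1 and the 3 type IX chains). The middle 90 bases of the run are shown for 4 fibrillar chains, because the table sets them apart from each other: Col1a1 and Col1a2 were lower in the shTaz column, Col3a1 was nearly equal and Col5a2 was higher. Capitals mark the glycine codons, 5′ to 3′ in the sense of the transcript.
Col1a1: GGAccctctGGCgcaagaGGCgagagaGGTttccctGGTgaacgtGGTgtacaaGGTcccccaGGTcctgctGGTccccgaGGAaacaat
Col1a2: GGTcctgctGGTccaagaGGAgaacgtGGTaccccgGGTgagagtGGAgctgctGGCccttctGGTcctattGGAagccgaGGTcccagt
Col3a1: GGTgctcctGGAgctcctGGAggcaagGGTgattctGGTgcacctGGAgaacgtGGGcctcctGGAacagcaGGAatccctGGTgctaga
Col5a2: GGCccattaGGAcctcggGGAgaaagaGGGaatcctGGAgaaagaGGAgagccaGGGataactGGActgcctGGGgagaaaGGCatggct
The 4 windows share the period and differ in the bases between. The GC content of the whole run was 65.2% in Col1a1, 62.0% in Col1a2, 60.9% in Col3a1 and 59.9% in Col5a2. That of the whole transcript, untranslated parts included, was 58.9%, 55.7%, 52.5% and 49.6% in the same order. Col1a1 lies on chromosome 11 from 94936224 to 94953042 (plus strand), Col1a2 on chromosome 6 from 4504814 to 4541544 (plus), Col3a1 on chromosome 1 from 45311538 to 45349706 (plus) and Col5a2 on chromosome 1 from 45374321 to 45503282 (minus).

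The summed collagen RNA was lower in the shTaz column, and the classes did not differ alike. The 39 chains summed to 3385.5 and 2275 FPKM, the second being 67.2% of the first, while the sum over all listed genes was at 85.3%. Most of the fall lay in Col1a1 (1375 and 841 FPKM), Col1a2 (334 and 138), Col6a1 (394 and 248) and Col6a2 (316 and 152). The basement membrane chains summed to 94.0 and 99.6 FPKM. Of the 39 chains, 26 averaged 1 FPKM or more. The nearest chains on either side of this limit were Col13a1 (1.18 and 1.10 FPKM) and Col20a1 (0.589 and 0.558 FPKM). Among the 26 retained chains, 5 were 2-fold lower and 0 were 2-fold higher in the shTaz column, where 3.25% of all retained genes were 2-fold lower and 3.96% were 2-fold higher. The 5 were Col2a1, Col1a2, Col15a1, Col6a2 and Col11a2. The median difference of the 26 was -0.22, and 22 of them lay below the median of all retained genes. Without the GC trend the median of the 26 was -0.063. The retained collagens had a median transcript GC content of 57.2%, against 50.7% for all retained genes, and in this table GC-rich genes were lower in the shTaz column. With the trend of GC content removed, 1 chain was 2-fold lower (Col1a2) and 1 was 2-fold higher (Col4a6). Of retained genes, 2.41% were then 2-fold lower and 2.11% 2-fold higher, and 15 of the 26 chains lay below the median of all genes. The removal kept the median of all retained genes, so a chain on the trend lies at 0.12 and not at 0. Measured from 0.12, Col4a6 (1.01) fell short of 2-fold and Col15a1 (-0.91) reached it.

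**Figure D1:**
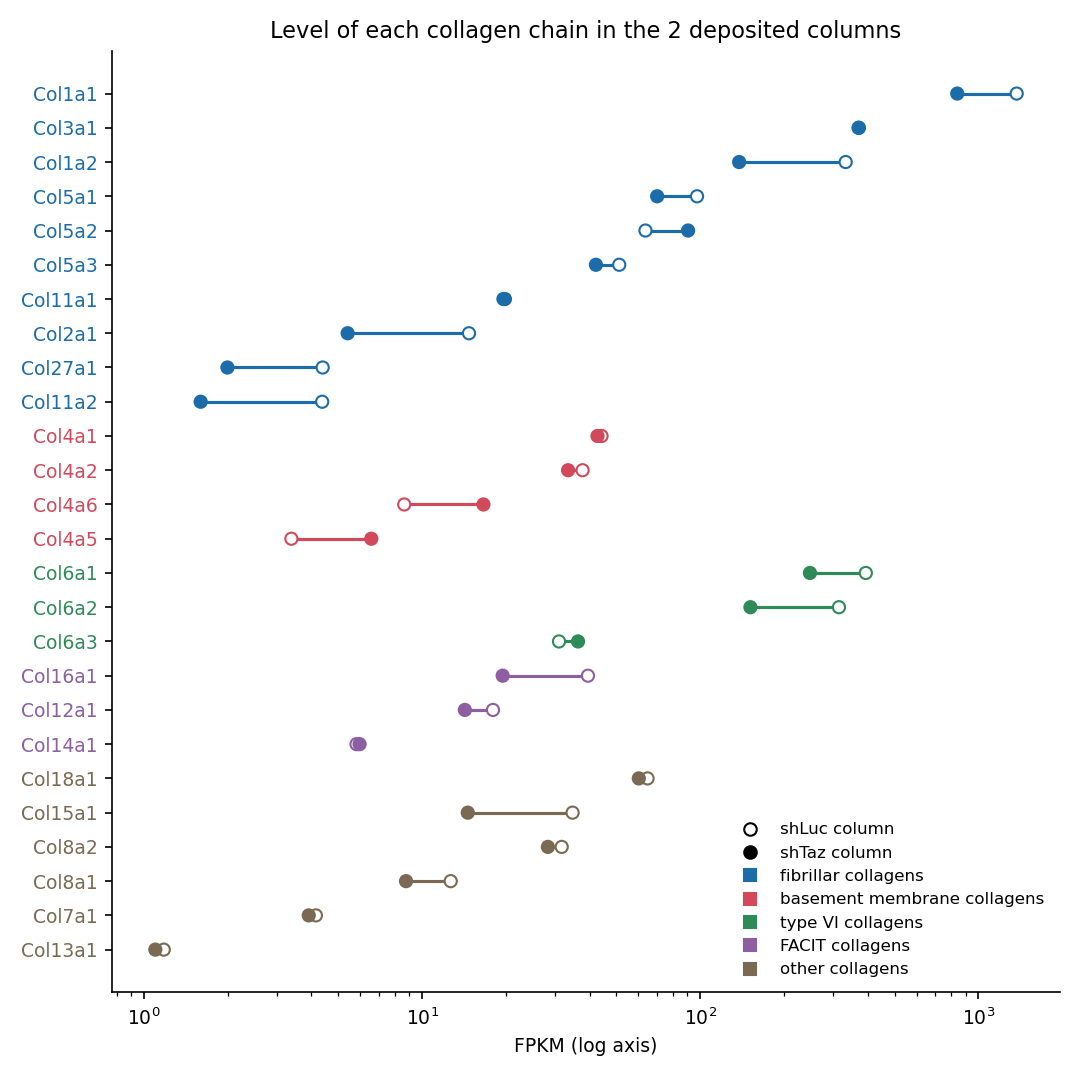
FPKM (log axis) of the 26 collagen chains with a mean of at least 1 FPKM, grouped by class; open circles stand for the shLuc column, filled circles for the shTaz column. Col1a1 had the highest value in both columns (1375 and 841 FPKM), and most filled circles lie to the left of the open ones, apart from Col5a2, Col4a5, Col4a6, Col6a3 and, by a small amount, Col14a1.

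The collagen signal was dominated by few chains. Col1a1 made up 40.6% of the summed collagen FPKM in control and 36.9% in knockdown tumors. Col6a1 followed with 11.6% and 10.9%, Col3a1 with 11.0% and 16.3%, Col1a2 with 9.86% and 6.07%, and Col6a2 with 9.32% and 6.67%. Col6a1 stood above Col3a1 in the control column and below it in the knockdown column. Among the smaller shares, Col5a2 went from 1.88% to 3.98%. The 8 chains highest in the shLuc column held 89.1% and 86.6% of the control and knockdown sums. FPKM is per length, so these shares compare chains of different size.

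**Figure D2:**
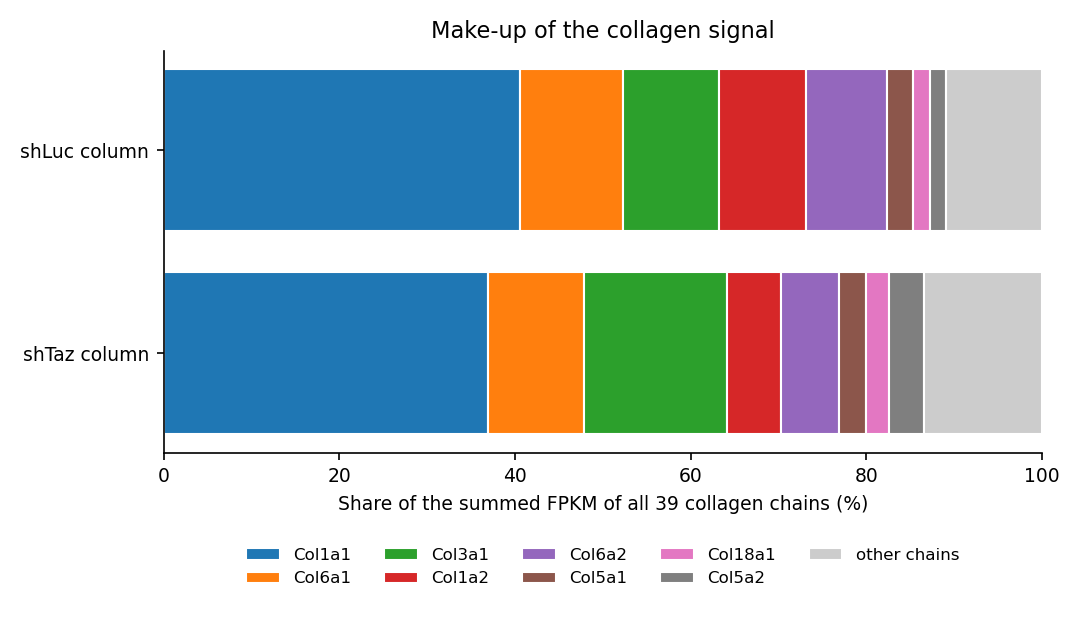
Share (%) of the summed FPKM of the 39 collagen chains held by the 8 chains highest in the shLuc column and by the other 31, as 1 stacked bar per column. The type I and type VI segments are shorter and the Col3a1 and Col5a2 segments longer in the shTaz bar.

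Fibrillar chains split within the class. All 10 were retained, 3 were 2-fold lower, 0 were 2-fold higher, and the median difference was -0.59. Among all retained genes, 3.25% were 2-fold lower and 3.96% 2-fold higher. Type I collagen, the main fibril protein of stroma, was lower in both of its chains. Col1a1 was at 1375 and 841 FPKM (-0.71), and Col1a2 at 334 and 138 FPKM (-1.27). With the GC trend removed Col1a1 was at -0.28 and Col1a2 at -1.02, and under quantile normalization they were at -0.33 and -0.99. A difference below that of Col1a2 was found in 1.91% of retained genes. Type III collagen, which forms fibrils together with type I, was nearly equal, with Col3a1 at 372 and 371 FPKM (0.00). Col3a1 thus stood at 1.12 times Col1a2 in control and at 2.69 times Col1a2 in knockdown tumors.

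Type V collagen, which sits inside type I fibrils and sets their diameter, had chains on both sides. Col5a1 was at 97.4 and 70.03 FPKM (-0.47), Col5a2 at 63.6 and 90.5 FPKM (0.50), and Col5a3 at 51.2 and 42.2 FPKM (-0.27). With the GC trend removed Col5a1 was at -0.08 and Col5a3 at 0.29. The sign of Col5a3 turned in 2 of the 7 alternatives. Col5a1 was therefore the higher of the pair in the shLuc column and Col5a2 in the shTaz column. Col5a2 and Col3a1 are neighbours on chromosome 1, tail to tail with 24614 bases between them. Of the pair Col5a2 was higher, also in the 7 alternatives that covered all 26 chains, while Col3a1 was close to 0 and its sign turned in 2 of them. Among the 7, no filter and a pseudocount of 0.1 cannot turn the sign of a chain.

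The remaining fibrillar chains are best known from cartilage. Col2a1, the main fibril chain of cartilage, was at 14.7 and 5.40 FPKM (-1.30). Col11a2, a chain of the type XI collagen that nucleates cartilage fibrils, was at 4.37 and 1.60 FPKM (-1.05), and Col27a1 at 4.39 and 1.99 FPKM (-0.85). Col11a1, the partner of Col11a2, was nearly equal at 19.9 and 19.6 FPKM (-0.02). Of these 4 chains, 2 were 2-fold lower and all lay below 0. Col2a1 and Col11a2 have 62.2% and 62.9% GC and Col11a1 48.0%, and with the GC trend removed their differences were -0.71, -0.43 and -0.18. Of 9 chondrocyte markers 7 were found, 4 were retained and 1 (Ucma) was 2-fold lower. Among the retained ones, Acan, the cartilage proteoglycan aggrecan, was at 52.9 and 63.9 FPKM (0.27), and Sox9, the transcription factor of chondrocytes, at 21.3 and 30.1 FPKM (0.48). Comp was at 1.64 and 0.739 FPKM (-0.60), and Ucma was at 6.75 FPKM and listed at 0 in the shTaz column. The 7 summed to 83.7 and 95.4 FPKM, and their part in the lower Col2a1 value was not tested.

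**Figure D3:**
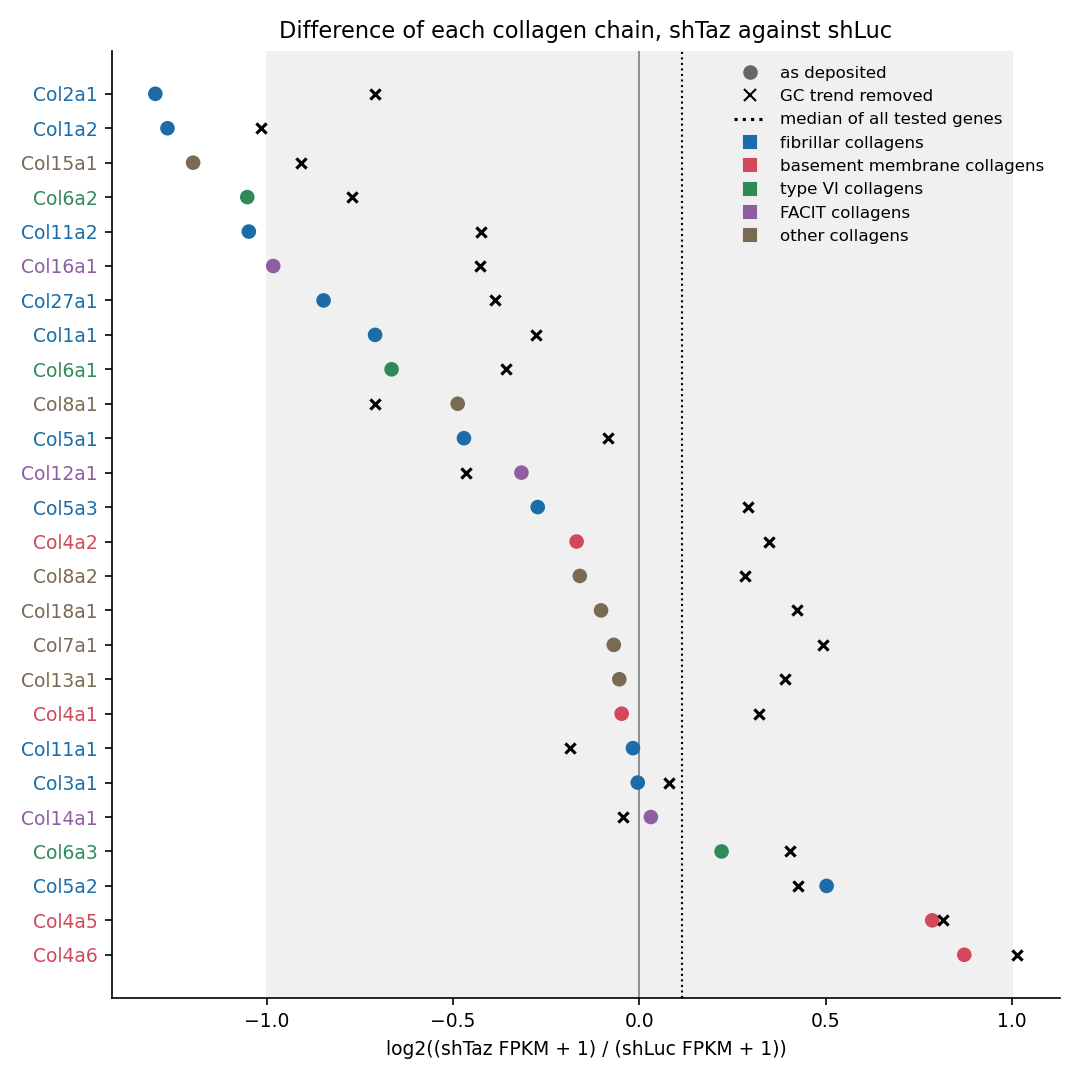
Difference of each retained collagen chain on the log2(FPKM + 1) scale (shTaz against shLuc), ordered by size; coloured points are the deposited values, crosses the values with the GC trend removed, the grey band spans less than 2-fold and the dotted line is the median of all retained genes (0.12). The lowest points are Col2a1 (-1.30) and Col1a2 (-1.27) and the highest Col4a6 (0.87), and most crosses of GC-rich chains lie to the right of their points.

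Basement membrane chains stood apart by pair. Of 6 type IV chains 4 were retained, none of these 4 was 2-fold different, and 2 were lower and 2 higher. Col4a1 and Col4a2, which form the common network of all basement membranes, were at 44.2 and 42.7 FPKM (-0.05) and at 37.8 and 33.5 FPKM (-0.17). Their sign turned in 3 and 2 of the 7 alternatives. Col4a5 and Col4a6 are found in specialised basement membranes such as those of smooth muscle and epidermis. They were at 3.39 and 6.57 FPKM (0.79) and at 8.62 and 16.6 FPKM (0.87), the most positive differences of any retained chain. Both stayed higher in the 7 alternatives, of which no filter and the pseudocount of 0.1 cannot turn a sign. Col4a3 (0.0384 and 0.0811 FPKM) and Col4a4 (listed at 0 and at 0.103 FPKM), the partners of Col4a5 in the kidney, were near 0.

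Type IV genes lie head to head in pairs, and within a pair the differences were alike. On chromosome X, Col4a6 (141165403 to 141474076, minus strand) and Col4a5 (141475385 to 141689234, plus strand) start next to each other, with 1308 bases between the annotated genes. The ratio of Col4a6 to Col4a5 was 2.55 in control and 2.53 in knockdown tumors. Col4a1 (chromosome 8, 11198423 to 11312826, minus strand) and Col4a2 (11312805 to 11449287, plus strand) overlap by 22 bases at their starts, and their ratio was 1.17 and 1.28. The bases upstream of the X-linked pair are shown because these 2 genes had like differences. They run from 250 to 51 bases before each RefSeq start (GRCm38.p6), chrX:141475169-141475368 on the plus strand for Col4a5 and chrX:141474127-141474326 on the minus strand for Col4a6. Capitals mark a CCAAT box, a common promoter element.
Col4a5: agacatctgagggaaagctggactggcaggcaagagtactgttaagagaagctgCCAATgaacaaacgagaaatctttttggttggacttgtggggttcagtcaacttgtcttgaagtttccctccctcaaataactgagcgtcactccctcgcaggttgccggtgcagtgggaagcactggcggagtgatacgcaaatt
Col4a6: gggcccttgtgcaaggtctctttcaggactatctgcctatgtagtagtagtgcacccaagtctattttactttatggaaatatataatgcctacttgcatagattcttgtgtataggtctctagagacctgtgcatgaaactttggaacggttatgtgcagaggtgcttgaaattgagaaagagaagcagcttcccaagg
Only the Col4a5 window holds a marked motif. Windows of 250 bases before the start were found in RefSeq for 31 of the 39 members and searched on both strands for CATTCC (the core bound by TEAD factors, the DNA-binding partners of TAZ), CCAAT and TATAAA. Members were counted per gene, with a match in any window of the gene, and the RefSeq table was counted per window. A gene with more than 1 window thus had more room for a match. The TEAD core was in the windows of 4 of the 31 (12.9%), against 12.6% of 32851 windows in the RefSeq table. The 4 were Col18a1, Col20a1, Col3a1 and Col6a2, of which only Col6a2 was 2-fold lower. No window was found for Col1a1, Col2a1 and Col5a2, among others. Of the 5 chains that were 2-fold lower, 4 were thus searched and Col2a1 was not. CCAAT was in 12 of the 31 (38.7%, against 33.85%) and TATAAA in 4 (12.9%, against 12.4%). These shares were near those of all windows, and a match is a string of letters and no binding site.

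Type VI chains were lower in 2 of the 3 retained. Type VI collagen is assembled from Col6a1, Col6a2 and a longer partner, mostly Col6a3. Col6a1 was at 394 and 248 FPKM (-0.66) and Col6a2 at 316 and 152 FPKM (-1.05), whereas the longer Col6a3 was at 31.1 and 36.4 FPKM (0.22). With the length trend removed they were at -0.78, -1.20 and 0.03, where the median of all retained genes was 0.11. With the GC trend removed they were at -0.36, -0.77 and 0.41. The transcripts have 4100, 4653 and 10106 bases. Col6a2 exceeded Col6a3 by 10.2 times in control and 4.17 times in knockdown tumors. Col6a1 and Col6a2 are neighbours on the minus strand of chromosome 10, with 85161 bases between them, and Col6a3 lies on chromosome 1. The alternative long chains Col6a4, Col6a5 and Col6a6 stood between 0 and 0.0610 FPKM in both columns.

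**Figure D4:**
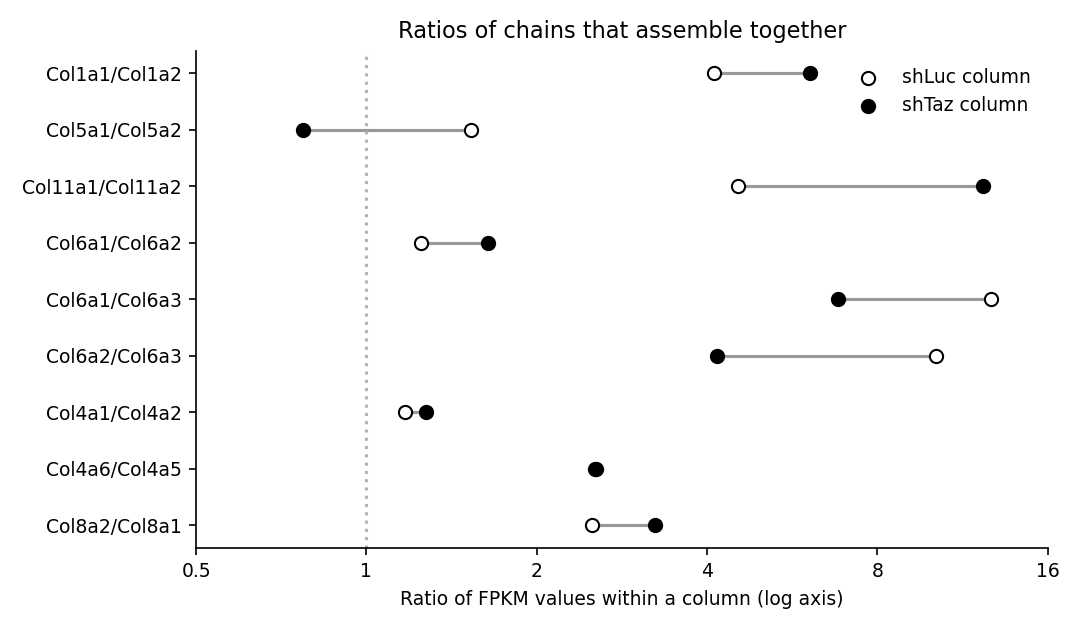
Ratio of the FPKM values of 2 chains of the same collagen type within each column (log axis; open circle shLuc, filled circle shTaz; dotted line at equal levels). The Col4a6/Col4a5 circles coincide (2.55 and 2.53), whereas Col5a1/Col5a2 went from 1.53 to 0.774 and Col11a1/Col11a2 from 4.54 to 12.3.

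The balance of partner chains differed between the columns in several types. Col1a1 to Col1a2 (58.9% and 55.7% GC) was 4.12 in control and 6.09 in knockdown tumors. The helix of type I collagen usually holds 2 Col1a1 chains and 1 Col1a2 chain. That is a count of protein chains, against which an FPKM ratio of RNA cannot be read. Col5a1 (58.0% GC) to Col5a2 (49.6% GC) was 1.53 and 0.774. Col11a1 (48.0% GC) to Col11a2 (62.9% GC) was 4.54 and 12.3, and Col11a2 was near 1 FPKM in the knockdown column. In type VIII, a short-chain network collagen of vessels, Col8a2 (59.1% GC) to Col8a1 (46.8% GC) was 2.51 and 3.24, and in type VI, Col6a1 (56.7% GC) to Col6a2 (56.2% GC) was 1.25 and 1.64.

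FACIT chains were lower or equal. Of 8 found 3 were retained, none of these was 2-fold different, and the median was -0.32. Col16a1, which connects fibrils and cells, was at 39.5 and 19.5 FPKM (-0.98), just short of 2-fold, and has 61.4% GC. Col12a1, a long FACIT of tendon and stressed matrix, was at 18.0 and 14.2 FPKM (-0.32). Col14a1, a related FACIT on type I fibrils, was at 5.81 and 5.96 FPKM (0.03), and its sign turned in 5 of the 7 alternatives. Col12a1 stayed lower with the GC trend removed (-0.47), where Col16a1 was at -0.43. Col9a1, Col9a2 and Col9a3, the chains of the cartilage FACIT, lay at or under 0.365 FPKM in both columns, as did Col22a1.

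Among the other chains, Col15a1 differed most. Col15a1 and Col18a1 are the multiplexins, basement membrane zone collagens of vessels and muscle, and the end of Col18a1 is released as endostatin. Col15a1 was at 34.8 and 14.6 FPKM (-1.20), and Col18a1 at 64.7 and 60.2 FPKM (-0.10). With the GC trend removed, Col15a1 was at -0.91 and Col18a1 at 0.42. Of 10 endothelial markers 9 were retained, 7 below 0 and 2 above, none was 2-fold different, and the median was -0.46. They summed to 169.6 and 113 FPKM, with Pecam1 at 11.5 and 10.8 FPKM and Plvap at 67.2 and 36.2 FPKM, and Cldn5, a tight junction protein, was at 18.2 and 10.3 FPKM. The higher ones were Kdr at 1.69 and 2.68 FPKM (0.45) and Emcn at 4.92 and 5.68 FPKM (0.17). The 9 retained markers had a median GC content of 57.4%, against 50.7% for all retained genes. Plvap and Cldn5 have 60.6% and 60.5% GC, Pecam1 50.2%, Kdr 49.4% and Emcn 41.5%. The GC trend was not removed from the marker values. Their part in the Col15a1 value was not tested.

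The network chains Col8a1 and Col8a2 were at 12.7 and 8.75 FPKM (-0.49) and at 31.8 and 28.3 FPKM (-0.16). Col7a1, the anchoring fibril chain of skin, was at 4.15 and 3.91 FPKM (-0.07), and the transmembrane chain Col13a1 at 1.18 and 1.10 FPKM (-0.05). The differences of Col7a1, Col8a2, Col13a1 and Col18a1 were close to 0, and with the GC trend removed they lay above the 0.12 of all retained genes. Col17a1, the hemidesmosome collagen of keratinocytes, was at 0.0728 and 0.239 FPKM, Col23a1 at 0.222 and 0.144 FPKM, and Col28a1 at 0.0869 and 0.319 FPKM. The 13 chains under a mean of 1 FPKM ranged from 0 to 0.589 FPKM in control and from 0 to 0.558 FPKM in knockdown tumors. At such levels no fold is given.

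Differences of the retained chains followed base composition and transcript length to some extent. Across the 26 chains, which share the same 2 columns, the difference and transcript GC content had a Pearson correlation of -0.43 and a Spearman correlation of -0.44. Over 11084 retained genes with a GC value these were -0.49 and -0.58. For transcript length (log2) the Pearson and Spearman correlations were 0.29 and 0.46 across the 26 chains. Over the 11084 genes they were 0.29 and 0.32. The 13 chains under the median GC content of 57.2% held all 5 chains that were higher and 3 of the 5 that were 2-fold lower (Col1a2, Col15a1 and Col6a2). The 13 at or above it held 0 higher chains and the 2-fold lower Col2a1 and Col11a2. With the GC trend of all genes removed, the Pearson correlation with GC content across the 26 chains was 0.01. That with length was 0.20 (Spearman 0.40) after the same removal. Col1a2 (-1.02), Col15a1 (-0.91) and Col6a2 (-0.77) then had the most negative values, and Col4a6 (1.01) and Col4a5 (0.82) the most positive.

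**Figure D5:**
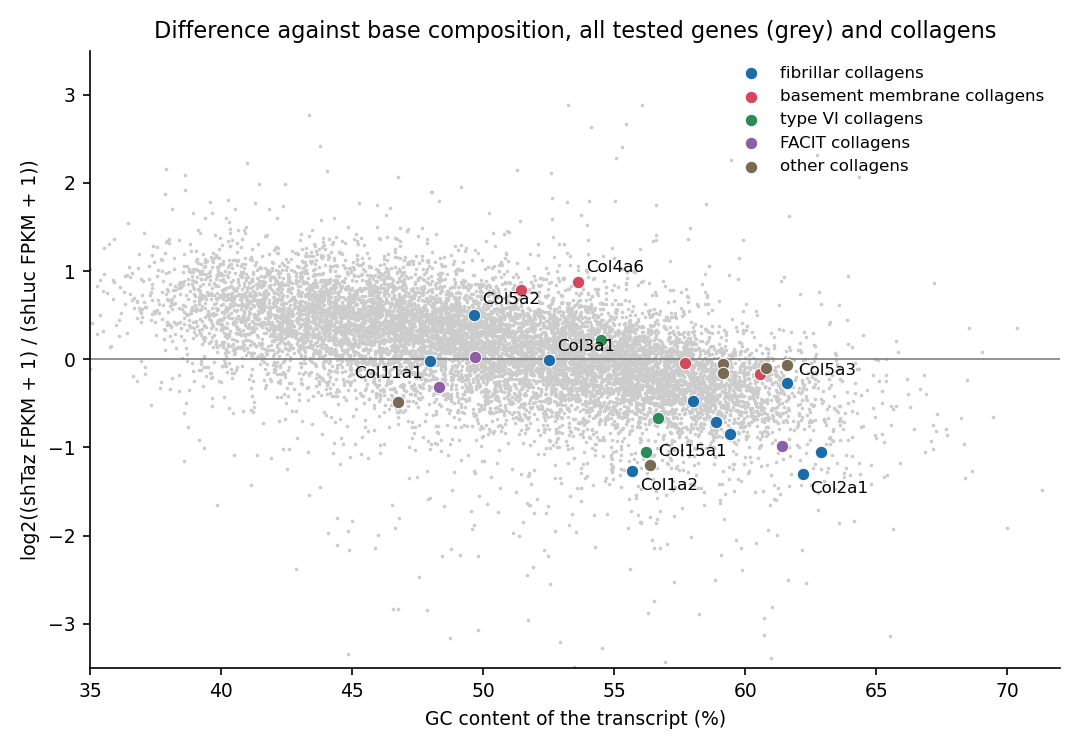
GC content of the transcript (%) against the difference on the log2(FPKM + 1) scale for 11084 retained genes (grey; 29 lie outside the axes) and the 26 collagen chains (coloured by class). The grey cloud slopes downward; Col1a2 and Col15a1 lie toward its lower edge and Col4a6 toward its upper edge at their GC content.

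Genes that fold and process collagen lay mostly below 0 by small amounts, where 4858 of all 11650 retained genes lay below 0. Of 21 folding and secretion genes 20 were retained, 1 was 2-fold lower, 0 were 2-fold higher, and 15 lay below 0, with a median of -0.21. Serpinh1, which encodes the collagen chaperone HSP47, was the 2-fold lower one at 115 and 53.1 FPKM (-1.10), and no other member was 2-fold different. Of 13 genes for procollagen processing and crosslinking 11 were retained, none was 2-fold different, and 8 lay below 0, with a median of -0.38. Pcolce2, an enhancer of procollagen cleavage, was at 3.04 and 1.07 FPKM (-0.96), while Lox, the crosslinking enzyme lysyl oxidase, was at 31.2 and 59.0 FPKM (0.90). With the GC trend removed, the medians of the 2 lists were 0.01 and -0.04, where that of all retained genes was 0.12.

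Receptors differed in both directions. Of 10 collagen receptor genes 7 were retained, 1 was 2-fold lower, 1 was 2-fold higher, and the median was -0.29. Among all retained genes, 3.25% were 2-fold lower and 3.96% 2-fold higher. Of the 7, 5 lay below 0 and 2 above. With the GC trend removed the median was -0.37, where that of all retained genes was 0.12. Itga11, the integrin chain by which fibroblasts bind type I collagen, was at 7.50 and 1.84 FPKM (-1.58). Ddr2, a receptor kinase for fibrillar collagen, was at 49.7 and 130 FPKM (1.37), and Itgb1, the shared beta chain of the collagen-binding integrins, at 67.4 and 83.3 FPKM (0.30). Ddr1 was at 30.4 and 16.5 FPKM (-0.84), and Itga10 at 10.7 and 6.15 FPKM (-0.71). The higher Ddr2 and Itgb1 have 45.1% and 44.8% GC. The lower Ddr1, Itga11 and Itga10 have 59.7%, 55.5% and 53.8%, and the also lower Mrc2 and Lair1 58.7% and 43.5%.

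Fibroblast markers were lower alongside the collagens, and markers of pericytes and smooth muscle were on both sides. Of 10 fibroblast markers 9 were retained, 5 were 2-fold lower and 0 were 2-fold higher. Among all retained genes, 3.25% were 2-fold lower and 3.96% 2-fold higher. Dpt (dermatopontin) was at 18.4 and 1.16 FPKM and Dcn (decorin) at 13.8 and 1.85 FPKM. Fbln1 (fibulin 1) was at 10.9 and 2.52 FPKM and Pi16 at 7.997 and 2.87 FPKM. The 10 summed to 135 and 66.7 FPKM, the second being 49.3% of the first. Pdgfra, a fibroblast receptor, was higher at 8.75 and 13.5 FPKM. Of 11 pericyte and smooth muscle markers 9 were retained, 5 below 0 and 4 above, with 2 that were 2-fold lower (Tagln at 11.1 and 2.82 FPKM, Notch3 at 4.42 and 0.918 FPKM) and 2 that were 2-fold higher (Des at 0.586 and 3.004 FPKM, Rgs5 at 4.84 and 12.03 FPKM). The 11 summed to 97.1 and 75.5 FPKM. Their part in the collagen values was not tested. None of these fibroblast and pericyte markers was at 0 in either column.

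Smaller marker lists are given for the chains they bear on. Of 6 osteoblast markers 3 were found and summed to 11.5 and 12.1 FPKM, and Runx2 was at 9.25 and 11.6 FPKM against Dmp1 at 2.07 and 0.503 FPKM. The keratinocyte markers summed to 11.0 and 13.5 FPKM, of which Krt14, a keratin of basal cells, was at 5.49 and 3.88 FPKM, and Sfn, also called stratifin, was at 1.29 and 3.30 FPKM. Of 7 adipocyte markers 5 were found and 3 retained, 2 below 0 and 1 above. They summed to 53.02 and 41.8 FPKM, with Pparg at 1.95 and 8.33 FPKM, Fabp4 at 39.8 and 26.8 FPKM and Lpl at 11.0 and 6.18 FPKM. Of 8 skeletal muscle markers 5 were retained and 4 of them were 2-fold higher, where 3.96% of all retained genes were. The fifth, Tnnc2, was lower at 12.4 and 5.86 FPKM (-0.96). The 8 had a sum of 15.6 and 38.4 FPKM, with Acta1 (skeletal actin) listed at 0 and at 14.9 FPKM. The other higher ones were Ckm (muscle creatine kinase) at 0.436 and 2.295 FPKM, Mylpf (a myosin light chain) at 0.706 and 5.05 FPKM, and Tnnt3 (a troponin) at 1.61 and 8.004 FPKM. The 7 macrophage markers summed to 4129.9 and 3581.1 FPKM, with none 2-fold different and C1qa, a complement subunit, at 1868 and 1470.3 FPKM. Mrc1 was at 12.3 and 20.7 FPKM and Csf1r at 132 and 174 FPKM, while the pan-leukocyte gene Ptprc was at 3.96 and 10.7 FPKM. The part of these cells in the collagen values was not tested.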

How the data were processed

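The authors deposited FPKM values for 15424 genes, in 1 column per group, and the column headings match a label that both samples of the group carry. Reads were handled with Trim Galore and TopHat on mm10, per the submitters' processing notes. Versions, the FPKM program, the annotation and the strand setting are not given in the sources used here. FPKM makes no correction for GC content or for very abundant RNAs, and depth and counting error are unknown. The collagen members, classes and lists were chosen with earlier results of these data known. The plan was a limma test for values per sample and no test for 1 value per group, and the latter applied. Differences were log2 ratios with a pseudocount of 1, for genes averaging 1 FPKM or more. Every retained member is named with both values, and of each pathway or marker list up to 4 genes with 2-fold differences or else the 2 that differed most. Other list genes in the text were chosen after their values were seen. Of 134 genes in the 15 pathway and marker lists 118 were found, 7 of them under an older symbol. Lists were described by counts and medians, and 1 marker list is not reported here. GC content and length were read from each gene's longest coding transcript in GENCODE M21 (95.1% of retained genes). Trends were removed by lowess (span 0.3, statsmodels 0.14.6), tested on simulated data. The median difference of all retained genes (0.12) was then added back, so a gene on the trend stands at 0.12. Alternatives were quantile normalization, median-ratio scaling, a pseudocount of 0.1, an average of at least 5 FPKM, no filter, and subtraction of the GC trend, the length trend or both. Promoter windows came from RefSeq (GRCm38.p6, the assembly of mm10).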

Additional observations from a re-analysis of the deposited data

How the results depend on the processing

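No paired analysis was possible because the table holds 1 column per group, and for the same reason no replicate could be left out. With no spread to go by, a median was taken to have moved when it shifted by 0.2 or more or changed sign. The count of 2-fold lower chains, 5, was 4 to 7 in the 6 alternatives that keep the GC trend. It was 1 after subtraction of the GC trend and 1 after subtraction of the GC and length trends. In both, Col15a1 would join if counted from the median of 0.12. The count of 2-fold higher chains was 0, and 1 after subtraction of the GC trend, where Col4a6 passed only with the median of 0.12 added back. The fibrillar median of -0.59 was -0.37 over chains averaging 5 FPKM or more, -0.32 under quantile normalization, and -0.23 without the GC trend or -0.30 without both. The type VI median of -0.66 was -0.069 when unfiltered, -0.40 under quantile normalization, and -0.36 without the GC trend or -0.43 without both. The basement membrane median of 0.37 was 0.10 when unfiltered, -0.047 over the 3 chains averaging 5 FPKM or more, and 0.58 without the GC trend. The median of the other chains, -0.13, was 0.34 without the GC trend and 0.27 without both. The folding and secretion median of -0.21 was 0.0053 without the GC trend and -0.0092 without both, and that of processing and crosslinking, -0.38, was -0.036 and -0.087. The Col11a1/Col11a2 ratio was 2.70 times as high in the knockdown column, and 2.04 times on FPKM + 1, since Col11a2 is low. No ratio was computed with the GC trend removed, where Col11a1 was at -0.18 and Col11a2 at -0.43. Apart from the effect of removed GC and length trends and of fewer chains retained, the cause of these shifts was not tested. The median of all chains, -0.22, was -0.063 without the GC trend, -0.12 without both, -0.095 when unfiltered, -0.35 under median-ratio scaling and -0.40 without the length trend. Median-ratio scaling moved the median of all retained genes by -0.12. Of single chains, Col1a2 was 2-fold lower except with quantile normalization (-0.99), and Col16a1 and Col27a1 passed 2-fold in 3 alternatives each. Depth is unknown, so no limit from counting can be given for low chains.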
